A study of Mus musculus with 28 samples.

Results

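Ribosome footprints of resting dendritic cells were set against the RNA level of the same genes at 0 h, to ask which mRNAs carried more or fewer ribosomes than their abundance would give. The members are the 2739 genes whose row has the same name in the footprint table (6250 rows) and in the RNA table (3147 rows), and 152 of them carry several gene names joined in 1 row. The footprint-to-RNA ratio of a gene is its footprint level minus its RNA level on a log2 scale, once the median shared gene of every library has been set to 0. A value of 1 is therefore a doubling relative to the middle of that library and not an absolute rate of translation.

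The footprint group held 2 libraries of unstimulated bone marrow-derived dendritic cells that were exposed to cycloheximide at 100 µg per ml, which freezes ribosomes on mRNA. Their ribosome-protected fragments were cut out with RNase I and freed of ribosomal RNA with Ribo-Zero. The 0 h RNA group held 2 libraries of polyadenylated, strand-specific RNA from cells at time 0, labelled mock-stimulated and deposited as the shared start of the mock and LPS arms, and the other 24 libraries of the series, also RNA, followed mock or LPS stimulation over time. All cells came from the marrow of female C57BL/6J mice aged 6-8 weeks and were cultured with GM-CSF at 20 ng per ml, so the controls carry this growth factor too. The labels do not say whether replicates were separate cultures or mice, or whether footprints and RNA came from the same cells, so the p-values measure only how far these libraries scatter, and that scatter may be technical.

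A ribosome covers a short stretch of the mRNA it reads, and sequencing the covered stretches shows where and how densely ribosomes sit on each message. Cells hold some messages away from ribosomes until a signal arrives. Ferritin mRNAs are the textbook case, since iron regulatory proteins bind a hairpin in their 5′ leader, the iron response element, when iron is scarce and block the start of translation. Ribosomal protein mRNAs begin with a run of pyrimidines, the terminal oligopyrimidine tract, through which mTOR signalling sets how many of them are translated.

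The 5′ leaders that hold the iron response element are shown because the lowest ratio of all genes belonged to a message that carries it. The element was searched as an unpaired C, 5 bases of stem, the loop CAGTGN with a base other than G in the place of N, and 5 bases that pair with the stem. It was found in the 5′ UTR, on the strand of the gene, of 17 of 22500 annotated genes (0.0756%) and of 7 of the 2716 members that could be matched to the annotation (0.258%), of which 5 are printed here. Sequences and positions are from GENCODE M21 on GRCm38, a later build than the mm9 used for the deposited tables, and the loop is in capitals.
Ftl1, 5′ UTR, chr7:45459779-45459808, minus strand: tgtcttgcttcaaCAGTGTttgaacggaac
Fth1, 5′ UTR, chr19:9982731-9982760, plus strand: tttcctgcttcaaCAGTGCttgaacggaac
Eif2s1, 5′ UTR, chr12:78861917-78861946, plus strand: taaataccaggggCAGTGActcttcagctc
Nasp, 5′ UTR, chr4:116627412-116627441, minus strand: ttttcttcgcaggCAGTGTtctgcccactg
Vti1b, 5′ UTR, chr12:79172406-79172435, minus strand: cgaggtgcggctgCAGTGAtggcttcgggg

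The start sites of ribosomal protein genes are shown because this family was the largest group with low ratios, yet a few of its members had high ones. Each window holds 15 bases before and 15 from the annotated start, on the strand of the gene, from RefSeq on GRCm38.p6, for the 5 lowest and the 3 highest ratios among members with a start in the table. The longest run of C and T is in capitals.
Rpsa, chr9:120127751-120127780, plus strand, log2 ratio -2.92: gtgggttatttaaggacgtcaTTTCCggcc
Rps26, chr10:128626492-128626521, minus strand, log2 ratio -2.48: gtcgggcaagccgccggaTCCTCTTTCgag
Rps27, chr3:90213634-90213663, minus strand, log2 ratio -2.35: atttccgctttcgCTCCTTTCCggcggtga
Rps24, chr14:24490663-24490692, plus strand, log2 ratio -2.25: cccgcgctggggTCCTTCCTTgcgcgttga
Fau, chr19:6057932-6057961, plus strand, log2 ratio -2.17: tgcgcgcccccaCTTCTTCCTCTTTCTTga
Rpl18, chr7:45718056-45718085, plus strand, log2 ratio 1.01: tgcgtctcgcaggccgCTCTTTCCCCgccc
Rpl15, chr14:18270972-18271001, minus strand, log2 ratio 1.29: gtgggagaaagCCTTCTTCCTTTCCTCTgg
Rps15a, chr7:118116133-118116162, minus strand, log2 ratio 3.14: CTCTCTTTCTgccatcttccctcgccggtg

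Before any ratio is read, the libraries themselves differed in 1 way that touches every result. The 2 footprint libraries were nearly interchangeable across genes (Pearson's r = 0.993 over 2739 genes), whereas the 2 RNA libraries of 0 h stood further apart (r = 0.932). The standard deviation of the replicate difference was 0.21 for footprints and 0.69 for RNA on the log2 scale. Both footprint libraries resembled RNA replicate 1 (r = 0.878 and 0.877) more than RNA replicate 2 (r = 0.777 and 0.777). These correlations are across genes, which are not independent replicates. Key ratios below are therefore also given against each RNA library alone.

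Of the 2739 genes, 374 (13.7%) had footprints above their RNA level and 356 (13%) had footprints below it, by limma with an adjusted p (Benjamini-Hochberg) under 0.05. The median ratio was 0.11, with quartiles at -0.53 and 0.69, and 371 genes lay above 1 while 369 lay below -1. The smallest ratio that passed the test was 0.65 in size. All 730 calls kept their direction when either RNA library was left out. That was no check, since a call already required a ratio large beside the gap between the RNA libraries. Passing again in those fits was no check either, since the spread then came from the closer footprint pair alone. Against the mean of the later mock RNA libraries in place of 0 h RNA, 720 of the calls passed again in the same direction. That fit kept both footprint libraries and called 979 genes higher and 768 lower, so it was a weak check. Without footprint replicate 1 there were 75 higher and 148 lower genes, and without footprint replicate 2 there were 78 and 149, since the spread then came from the RNA pair alone. The 178 genes called in both of these fits included every called gene with a ratio beyond 2.2 in size and none under 1.65. Lists below that lose calls in the fits without a footprint library share that fall with all genes. The split of calls moved with the scaling, to 254 higher and 405 lower when each library was rescaled to the same sum over the shared genes. Without any centring it was 59 and 1232, and the median ratio was then -0.72. The shared genes hold 53.4% and 54.4% of the footprint totals, against 92.5% and 92.1% of the RNA totals.

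**Figure D1:**
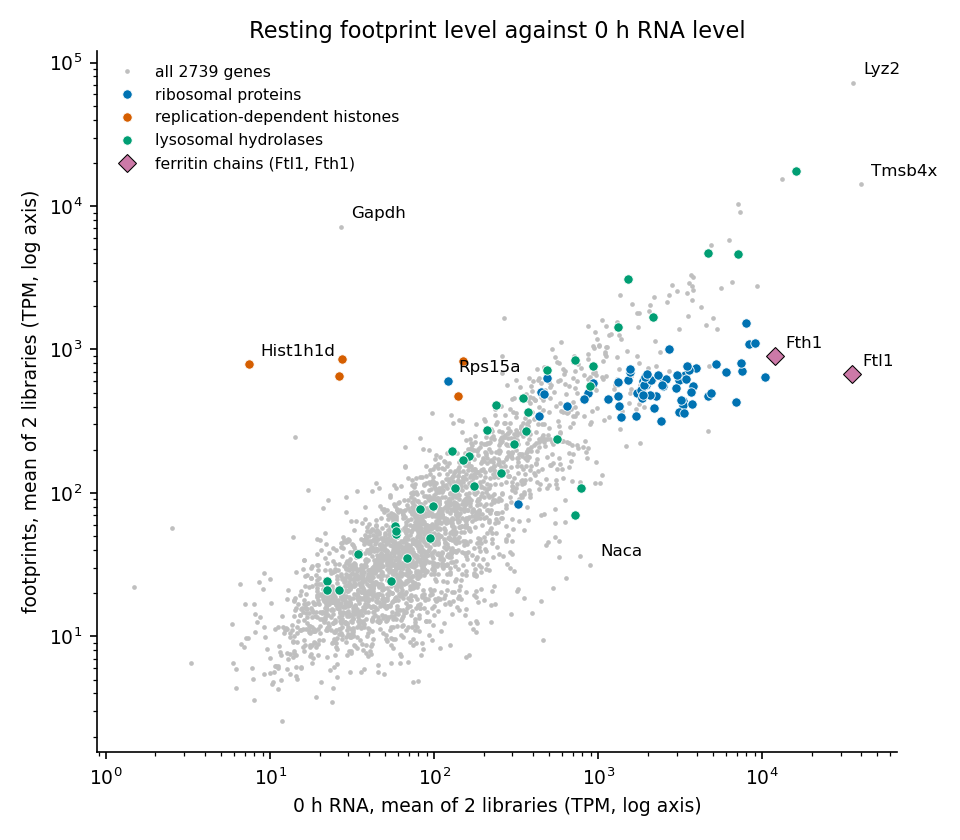
Mean footprint level (vertical axis, TPM, log scale) against mean 0 h RNA level (horizontal axis, TPM, log scale) of the 2739 genes, 1 point per gene and 2 libraries per mean. Ribosomal proteins and the ferritin chains Ftl1 and Fth1 lie below the main cloud, and replication-dependent histones and Gapdh lie above it.

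**Figure D2:**
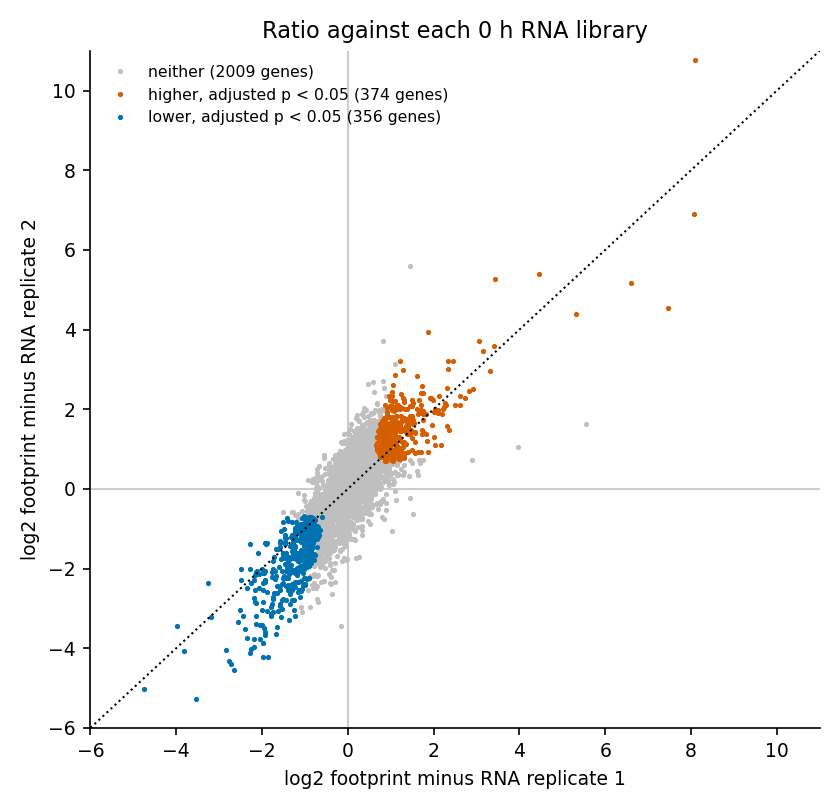
The log2 footprint-to-RNA ratio against 0 h RNA replicate 2 (vertical axis) and replicate 1 (horizontal axis), 1 point per gene, coloured by the call with all 4 libraries. The 374 higher and 356 lower genes keep their sign against either RNA library, as a call from these same libraries all but requires. The genes called neither way spread across 0.

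The messages of the cytosolic ribosome, the particle that makes cellular protein, carried few footprints for their abundance. Of 67 measured ribosomal proteins of 82 listed, 46 were lower (68.7%, against 13% of all genes) and 4 higher (5.97%, against 13.7%). Their median ratio was -1.27, against 0.11 over all genes. Summed over the family, footprints came to 38095 and 39349 TPM, against 163273 and 228424 TPM of 0 h RNA. The 28 proteins of the small subunit had a median of -1.51 (19 lower, 1 higher), and the 39 of the large subunit a median of -1.13 (27 lower, 3 higher). The family median was -1.35 without RNA replicate 1 and -1.07 without RNA replicate 2. Without footprint replicate 1, and likewise without replicate 2, 20 members were lower and 1 was higher.

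Within the family the acidic stalk proteins, which recruit elongation factors to the ribosome, were among the lowest. Rplp1 had 658 and 624 TPM in footprints against 6066 and 14558 TPM in 0 h RNA, a ratio of -3.04 (SE 0.45, limma adjusted p = 0.012). Rplp2 had 1148 and 1065 TPM in footprints against 5085 and 12947 TPM in RNA (ratio -2.04, SE 0.48, adjusted p = 0.031). The footprint and RNA values of both genes lay far apart, and the RNA replicates of each differed by more than the footprint replicates did. Rpsa, a small-subunit protein also known as a laminin receptor, had 432 and 428 TPM in footprints against 3146 and 10768 TPM in RNA (ratio -2.92, SE 0.59, adjusted p = 0.022). Rps29, the small-subunit protein with the most footprints, had 1577 and 1474 TPM against 7389 and 8450 TPM in RNA, a ratio of -1.54 (SE 0.23, adjusted p = 0.012), and without footprint replicate 2 its adjusted p was 0.066.

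A few members of the same particle ran the other way. Rps15a had 601 and 613 TPM in footprints against 113 and 131 TPM in RNA, so that all 4 libraries were close to their partner and the ratio was 3.14 (SE 0.25, adjusted p = 0.0042). Rpl15 had 644 and 625 TPM in footprints against 654 and 325 TPM in RNA (ratio 1.29, SE 0.34, adjusted p = 0.04), and this call was lost when either footprint library was left out (adjusted p = 0.22 and 0.18). In footprints Rps15a, Rpl15 and Rplp1 lay between 601 and 658 TPM, while in RNA they spread from 113 to 14558 TPM. The coding sequences of ribosomal proteins recur in processed pseudogenes, and a median of 96.4% of their 30-base windows also occurred in a transcript of another gene, so reads of this family may have been split or dropped differently in the 2 tables. Every value of the family is uncertain for that reason. The 270 genes outside the family with at least 50% of windows shared had a median share of 83.6% and a median ratio of 0.19 (49 higher, 25 lower), and 2379 genes under that share had 0.13. Only 3 ribosomal proteins were under 50%, with a median of -0.86, among them Rpl8 (11.2% shared) with a ratio of -0.92.

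**Figure D3:**
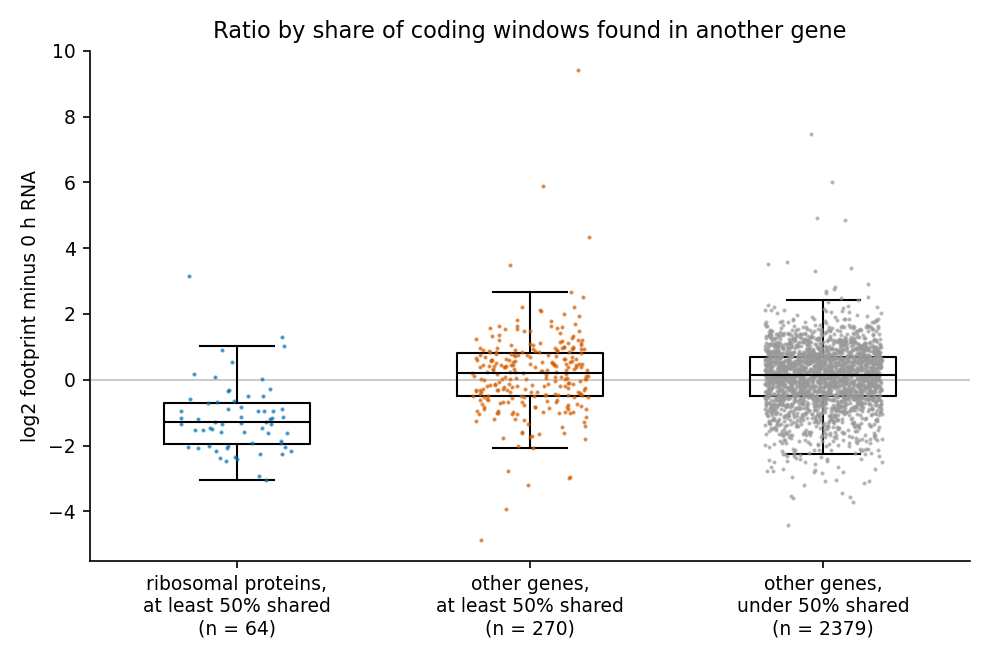
Log2 footprint-to-RNA ratio (vertical axis) of ribosomal proteins and other genes, divided by whether at least 50% of their 30-base coding windows occur in a transcript of another gene. Points are genes, boxes show the quartiles and median, and whiskers reach the last gene within 1.5 box lengths. Ribosomal proteins have a median of -1.29, against 0.19 in other genes above the same threshold, whose median share of windows is 83.6%.

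A run of 8 or more C and T was found in the start window of 26 of the 50 ribosomal protein genes with a start in the table (52%), compared with 15.6% of the 2208 members with a start and 13.9% of all 27025 genes there. Runs of A and G of that length, the same motif on the other strand, were found in 2% of ribosomal protein windows, 10.2% of members and 12.2% of all genes. The run was held by 18 of the 35 ribosomal protein genes called lower (51.4%) and by 8 of the 15 that were not (53.3%). The share of windows with a run was thus close in members with low and other ratios, as the printed starts of Fau and Rpl15 also show. A run anywhere in the window was counted, so it need not begin the mRNA. The printed run of Rps15a lies wholly before the annotated start.

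Other messages known for terminal oligopyrimidine tracts had a median ratio of -0.52, against 0.11 over all genes. Of 14 measured of 20 listed, 2 were lower (14.3%, against 13% of all genes) and 1 was higher (7.14%, against 13.7%), and 10 had ratios below 0. The list median was -0.52 without RNA replicate 1 and -0.45 without RNA replicate 2. Naca, a subunit of the complex that meets new chains at the ribosome exit, had 29.2 and 34 TPM in footprints against 848 and 925 TPM in RNA, a ratio of -3.94 (SE 0.24, adjusted p = 0.0029). Tpt1, an abundant growth-related protein, had 733 and 810 TPM in footprints against 4360 and 5091 TPM in RNA (ratio -1.78, SE 0.24, adjusted p = 0.01). Both were separated from RNA by far more than either pair of replicates, but 94.6% of Naca windows and 100% of Tpt1 windows also occurred in other genes. Eef1a1, which brings aminoacyl-tRNA to the ribosome, had 2848 and 2997 TPM in footprints against 4800 and 2358 TPM in RNA, and its ratio of 0.63 did not pass (SE 0.33, adjusted p = 0.18). Eef2, the translocation factor, had a ratio of 0.65 that did not pass either (SE 0.37, adjusted p = 0.22). The other uncalled members were Vim, an intermediate filament protein, at 0.88, and 8 with negative ratios, from -0.12 for Eif3f to -1.29 for Nap1l1. Hnrnpa1, an RNA-binding protein, was the member called higher, at 1.47 (SE 0.26, adjusted p = 0.017), a call lost when either footprint library was left out (adjusted p = 0.12 and 0.14).

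The rest of the translation apparatus had list medians closer to that of all genes. Among 28 measured initiation factors, 3 were higher (10.7%, against 13.7% of all genes) and 4 lower (14.3%, against 13%), with a median of 0.07. Eif2s1, the alpha subunit of eIF2, had 94.4 and 131 TPM in footprints against 67 and 46.7 TPM in RNA (ratio 1.81, SE 0.27, adjusted p = 0.012, and 0.051 without footprint replicate 2). Eif4g3, a scaffold of the cap-binding complex, had 11.9 and 10.1 TPM in footprints against 73.8 and 80.1 TPM in RNA (ratio -1.87, SE 0.24, adjusted p = 0.0092). The 2 genes thus lay on opposite sides with no overlap of libraries, as did 42.5% of all genes on the higher side and 33.5% on the lower. Of 22 aminoacyl-tRNA synthetases, which charge tRNAs, 1 was higher (4.55%) and 0 were lower (median 0.22). Of 30 mitochondrial ribosomal proteins, 5 were higher (16.7%) and 7 lower (23.3%), with a median of -0.19.

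Ferritin stood at the bottom of the whole list. Ftl1, the light chain of the iron storage shell, had 607 and 740 TPM in footprints against 33546 and 36916 TPM in 0 h RNA. Its ratio of -4.88 (SE 0.22, adjusted p = 0.0014) was the lowest of all 2739 genes, and it was -5.02 against RNA replicate 2 and -4.74 against RNA replicate 1. Fth1, the heavy chain that oxidises iron, had 897 and 896 TPM in footprints against 16145 and 7842 TPM in RNA (ratio -2.81, SE 0.33, adjusted p = 0.0072). For both chains the footprint libraries lay well below the RNA libraries. Of the coding windows, 95.6% in Ftl1 and 23.6% in Fth1 also occurred in another gene, which makes the Ftl1 level the less certain of the pair.

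The iron response element motif by itself went with no single direction. Vti1b, a SNARE of late endosomes, had 22 and 22.6 TPM in footprints against 197 and 264 TPM in RNA (ratio -2.46, SE 0.27, adjusted p = 0.0059). Nasp, a histone chaperone, had a ratio of -0.83 that did not pass (SE 0.32, adjusted p = 0.1). Eif2s1, at 1.81 with 58.5% of its coding windows shared with other genes, was higher. A match to the motif is a description of the letters and does not show that the protein binds there.

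Across 9 measured iron-handling genes, 4 were higher (44.4%, against 13.7% of all genes) and 2, the ferritin chains, were lower (22.2%, against 13%). Aco1, the cytosolic aconitase that also serves as an iron regulatory protein, had 66.7 and 70.9 TPM in footprints against 67.9 and 49.6 TPM in RNA (ratio 1.07, SE 0.23, adjusted p = 0.026). Ncoa4, the receptor that delivers ferritin to autophagy, had a ratio of 1.56 (SE 0.38, adjusted p = 0.035) with 96.7% of its windows shared, and Alas1, which starts haem synthesis, one of 1.09 (SE 0.29, adjusted p = 0.04). Lcn2, a secreted siderophore-binding protein of granulocytes, had 236 and 184 TPM in footprints against 63 and 69.4 TPM in RNA (ratio 2.48, SE 0.26, adjusted p = 0.0059). The calls of Aco1, Ncoa4 and Alas1 were lost when either footprint library was left out. Pcbp1, Pcbp2 and Fech, at 1.17, -0.09 and 0.64, did not pass.

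Among 4 measured selenoproteins, which decode UGA as selenocysteine, 2 were lower (50.0%, against 13% of all genes) and 0 higher (against 13.7%). Sephs2, the selenophosphate synthetase, had 16 and 11.9 TPM in footprints against 93 and 106 TPM in RNA (ratio -1.92, SE 0.27, adjusted p = 0.011). Gpx1, the main cytosolic glutathione peroxidase, had 864 and 732 TPM against 4370 and 2802 TPM in RNA (ratio -1.3, SE 0.27, adjusted p = 0.023), and its call was lost when either footprint library was left out (adjusted p = 0.098 and 0.22). The pair of Sepx1 and Txnrd1 had ratios of -0.06 and 0.27. Of 22 genes known for upstream reading frames or for control of their own translation, 3 were measured. Eif5 was lower at -1.45 (SE 0.37, adjusted p = 0.037, and 0.16 and 0.091 without footprint replicate 1 or 2), and Cebpb at -0.56 and Srm at 0.23 did not pass.

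Replication-dependent histones had the highest median ratio of any list with 3 or more measured members. Their mRNAs end in a stem-loop and most carry no poly(A) tail, and the RNA libraries were made from polyadenylated RNA. Of the 62 listed, 5 were in both tables, 4 of them higher (80.0%, against 13.7% of all genes), with a median of 5.88. The median was 4.54 without RNA replicate 1 and 6.6 without RNA replicate 2. Hist1h1d, a linker histone, had 752 and 836 TPM in footprints against 4.54 and 10.4 TPM in RNA (ratio 7.48, SE 0.4, adjusted p = 0.0021). Hist1h1e had 627 and 685 TPM in footprints against 5.96 and 46.8 TPM in RNA (ratio 6.00, SE 0.87, adjusted p = 0.012). In both genes the footprints of the pair agreed closely, while RNA was low and unequal. Hist2h2bb, a core histone, had 790 and 920 TPM in footprints against 15.4 and 39.7 TPM in RNA (ratio 5.88, SE 0.47, adjusted p = 0.0044), with 59.6% of its windows shared. Hist1h1c had 825 and 827 TPM against 172 and 126 TPM in RNA (ratio 3.32, SE 0.24, adjusted p = 0.0036). Hist1h1b had 437 and 508 TPM against 17.7 and 261 TPM in RNA, and its ratio of 3.59 did not pass (SE 1.16, adjusted p = 0.065). Among histone variants with a tail, H2afy (macroH2A) had 150 and 154 TPM in footprints against 476 and 848 TPM in RNA, a ratio of -1.22 that did not pass (SE 0.36, adjusted p = 0.052). The other measured variant, in the joined row of H1f0 and Icam1, had a ratio of 0.51 that did not pass (SE 0.24, adjusted p = 0.14). How far the poly(A) selection sets the histone ratios was not tested.

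Among surface receptors of phagocytes, which are made on ribosomes bound to the endoplasmic reticulum, 6 had more footprints than their RNA level. All 13 measured Fc and complement receptors and C-type lectins had ratios above 0 (median 1.00), compared with 55.3% of all genes, and 6 passed as higher (46.2%, against 13.7% of all genes) and 0 as lower. Clec10a, a galactose-binding lectin of dendritic cells and macrophages, had 828 and 986 TPM in footprints against 237 and 279 TPM in RNA (ratio 2.64, SE 0.26, adjusted p = 0.0059), with 41.9% of its windows shared. Mrc1, the mannose receptor, had 417 and 507 TPM in footprints against 395 and 404 TPM in RNA (ratio 1.04, SE 0.24, adjusted p = 0.03, and 0.27 and 0.4 without footprint replicate 1 or 2). Clec4n had the most footprints of the list, 2692 and 2857 TPM against 4922 and 2525 TPM in RNA, and its ratio of 0.49 did not pass (SE 0.31, adjusted p = 0.26). The lowest of the list, Clec4d, at 0.40, did not pass either. Of 11 integrins and adhesion genes, 5 were higher (45.5%) and 0 lower (median 0.96), led by Itgal at 1.78 (SE 0.36, adjusted p = 0.022). Without RNA replicate 2 the medians of these lists were 0.65 and 0.69. Without footprint replicate 1, or without replicate 2, 2 receptors and 1 integrin passed as higher.

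Secreted proteins and lysosomal enzymes lay on the same side. Among 20 measured secreted and stored effectors, 8 were higher (40.0%, against 13.7% of all genes) and 1 lower (5.00%, against 13%), with a median of 0.83. Most of the higher calls were lost when either footprint library was left out. Lyz2, the lysozyme of macrophages, had the most footprints of the 2739 genes, with 70959 and 73970 TPM against 55786 and 15606 TPM in RNA (ratio 2.13, SE 0.51, adjusted p = 0.033). Its RNA replicates differed widely, and its ratio was 2.98 against RNA replicate 2 and 1.28 against RNA replicate 1. Thbs1, the matrix protein thrombospondin, had 727 and 637 TPM in footprints against 289 and 229 TPM in RNA (ratio 2.23, SE 0.24, adjusted p = 0.0059). Ccl5, a chemokine, was the member called lower, with 96.5 and 149 TPM against 479 and 631 TPM in RNA (ratio -1.36, SE 0.32, adjusted p = 0.031), a call lost when either footprint library was left out (adjusted p = 0.31 and 0.08).

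Of 37 measured lysosomal hydrolases and cofactors, 11 were higher (29.7%, against 13.7% of all genes) and 0 lower (against 13%), with a median of 0.76. Ctsb, a cysteine protease, had 3092 and 3086 TPM in footprints against 1630 and 1417 TPM in RNA (ratio 1.86, SE 0.21, adjusted p = 0.0065). Psap, the precursor of the saposins, had 16971 and 18117 TPM in footprints against 17225 and 14671 TPM in RNA (ratio 0.98, SE 0.18, adjusted p = 0.017, and 0.15 and 0.2 without footprint replicate 1 or 2). The footprint libraries of both genes lay above the RNA libraries after centring, as they did for 42.5% of all genes. Ppt1, a thioesterase, had 64.5 and 75.2 TPM in footprints against 146 and 1300 TPM in RNA, and its ratio of -1.80 did not pass (SE 0.97, adjusted p = 0.19). Without footprint replicate 1, 2 hydrolases were higher and 0 lower, and without replicate 2, 2 were higher and 2 lower. Of 36 genes of translocation, folding and glycosylation in the endoplasmic reticulum, 8 were higher (22.2%) and 2 lower (5.56%), with a median of 0.65. Most of the higher calls were lost when either footprint library was left out. Srp72, a protein of the particle that brings ribosomes to that membrane, was the lowest of the 36 genes. It had 36.7 and 38.9 TPM in footprints against 162 and 331 TPM in RNA (ratio -1.75, SE 0.4, adjusted p = 0.03). Among 4 measured genes of MHC class II presentation, 0 passed in the test, with ratios from 0.37 for H2-Aa to 1.31 for Cd74.

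**Figure D4:**
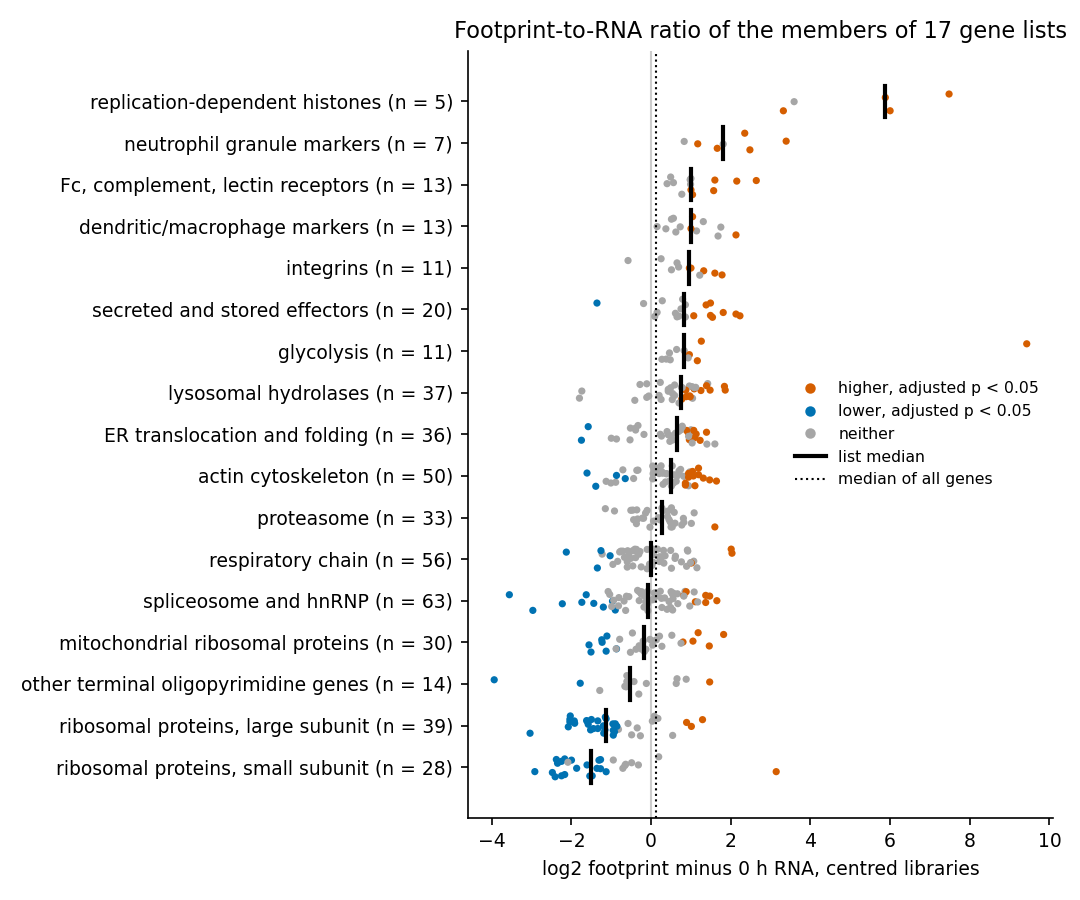
Log2 footprint-to-RNA ratio (horizontal axis) of the measured members of 17 gene lists, 1 point per gene, coloured by the test. Black bars are list medians and the dotted line is the median of all genes, 0.11. Ribosomal proteins sit to the left with medians of -1.13 and -1.51, and replication-dependent histones to the right with 5.88.

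Cytoskeletal and metabolic lists were mixed. Of 50 actin cytoskeleton genes, 13 were higher (26.0%, against 13.7% of all genes) and 4 lower (8.00%, against 13%), with a median of 0.49. None of the higher calls was made when either footprint library was left out (0 higher and 1 lower without replicate 1, 0 and 0 without replicate 2). Tmsb4x, the actin monomer-binding thymosin, had 14260 and 14132 TPM in footprints against 40188 and 39475 TPM in RNA (ratio -0.65, SE 0.17, adjusted p = 0.039, and 0.32 and 0.41 without footprint replicate 1 or 2). Tuba1c, an alpha tubulin, had 1664 and 1676 TPM in footprints against 296 and 237 TPM in RNA (ratio 3.49, SE 0.23, adjusted p = 0.0033), with 94.8% of its windows shared with other genes. All 11 glycolysis and lactate genes had ratios above 0 (median 0.83), and 4 of them were called higher (36.4%). All of these calls but that of Gapdh were lost when either footprint library was left out. Gapdh had the highest ratio of all genes, with 7526 and 6853 TPM in footprints against 48.2 and 6.03 TPM in RNA (ratio 9.43, SE 0.8, adjusted p = 0.0055). All of its windows (100%) also occurred in other genes, so the deposited RNA value of this enzyme, which every cell uses, is uncertain. In lipid synthesis, Hmgcs1, an early enzyme of the cholesterol pathway, had 317 and 402 TPM in footprints against 88 and 106 TPM in RNA (ratio 2.71, SE 0.27, adjusted p = 0.0059). Fasn, the fatty acid synthase, had 85.9 and 91.4 TPM in footprints against 29.6 and 15.5 TPM in RNA (ratio 2.83, SE 0.3, adjusted p = 0.0059). Neither gene shared a coding window with another. Of 9 cholesterol genes 2 were higher (22.2%) and 0 lower (median 0.66). Of 56 nuclear-encoded respiratory chain genes 3 were higher (5.36%) and 4 lower (7.14%), both below the shares of all genes (median -0.01).

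Nuclear RNA-processing proteins were called at about the rate of all genes, but some were among the 15 lowest ratios. Of 63 spliceosome and hnRNP proteins, 7 were higher (11.1%) and 9 lower (14.3%), and the median of -0.08 became 0.09 without RNA replicate 2. Rbm25, a splicing regulator, had 24.9 and 26.4 TPM in footprints against 327 and 952 TPM in RNA (ratio -3.56, SE 0.53, adjusted p = 0.012). Luc7l3, a U1-associated protein, had 20.3 and 23 TPM in footprints against 288 and 766 TPM in RNA (ratio -3.55, SE 0.5, adjusted p = 0.011). Arglu1, an arginine- and glutamate-rich nuclear protein, had 18.7 and 18.1 TPM in footprints against 172 and 535 TPM in RNA (ratio -3.14, SE 0.55, adjusted p = 0.017). In all 3 genes RNA was higher in replicate 2 than in replicate 1, and the ratio against replicate 1 alone was -2.72, -2.77 and -2.25.

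Further genes at the low end had varied roles. Unc13d, which primes granules for release and whose row is joined with mFLJ00067, had 9.69 and 9.31 TPM in footprints against 229 and 694 TPM in RNA (ratio -4.42, SE 0.54, adjusted p = 0.0078). Acad9, a mitochondrial dehydrogenase and assembly factor in a row joined with AK172713, had 17.5 and 17.9 TPM in footprints against 549 and 347 TPM in RNA (ratio -3.72, SE 0.27, adjusted p = 0.0036). Mt1, a metal-binding metallothionein, had 310 and 230 TPM in footprints against 2265 and 7120 TPM in RNA (ratio -3.07, SE 0.58, adjusted p = 0.019). These 3 genes had no overlap between footprints and RNA after centring, which the rule for naming the lowest ratios required. Of all genes, 33.5% lay below RNA without overlap. Cyb5r4, Ptp4a2, Akap13, Golgb1, Rabep1 and Ankrd17 completed the 15 lowest, with ratios from -3.59 to -3.04. Except for Cyb5r4, their RNA too was higher in replicate 2 than in replicate 1. Against RNA replicate 1 alone their ratios ran from -3.19 for Cyb5r4 to -1.85 for Ankrd17.

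**Figure D5:**
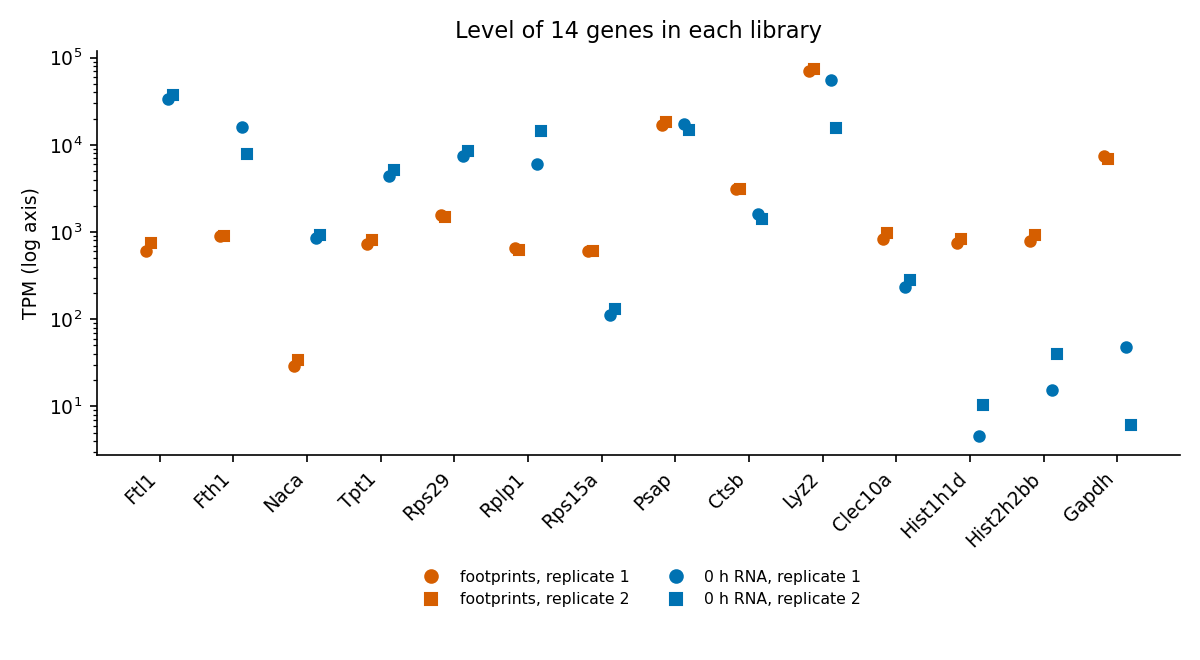
Level in TPM (vertical axis, log scale) of 14 genes in each library, with footprints at left and 0 h RNA at right of each gene (circles replicate 1, squares replicate 2). Footprint replicates lie almost on each other, while the RNA replicates of Rplp1, Lyz2, Hist2h2bb and Gapdh are apart.

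Markers of the labelled cell type were present in both assays. Of 25 dendritic cell and macrophage markers, 13 were in both tables and all 13 had ratios above 0 (median 1.00). The calls were 3 higher (23.1%, against 13.7% of all genes), Lyz2, Mrc1 and Itgax. Itgax (CD11c) had 930 and 944 TPM in footprints against 1087 and 642 TPM in RNA, a ratio of 1.00 (SE 0.28, adjusted p = 0.048), and 0.36 and 0.34 were its adjusted p without footprint replicate 1 or 2. Of the markers listed for T, NK and B cells, erythroid cells, mast cells and fibroblasts, 0 of 57 had a row in both tables. That does not show these cells to be absent, since only 13 of the 25 dendritic cell and macrophage markers had such a row. Some markers of neutrophils and their precursors had rows in both tables. All 7 measured of 18 had ratios above 0 (median 1.81), and 5 were higher (71.4%) and 0 lower. Without footprint replicate 1 the median was 1.55 and 3 were higher, and without replicate 2 it was 2.56 and 4 were higher.

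Summed over those 7 granulocyte markers, footprints came to 5714 and 4389 TPM against 3200 and 3173 TPM in 0 h RNA. Ltf, the iron-binding lactoferrin of neutrophil granules, had 127 and 80.4 TPM in footprints against 21.8 and 12.3 TPM in RNA (ratio 3.39, SE 0.35, adjusted p = 0.0059). S100a8, a calcium-binding protein of granulocytes and monocytes, had 2516 and 2241 TPM in footprints against 1579 and 1135 TPM in RNA (ratio 1.66, SE 0.24, adjusted p = 0.012, and 0.079 without footprint replicate 1). Against the mean of later mock RNA the list median was 1.13, and the adjusted p of Ltf, Lcn2 and S100a8 was then 0.056, 0.11 and 0.12. Among the 15 highest ratios were also 2 rows for eosinophil granule proteins. Epx, eosinophil peroxidase, had 73.9 and 39.9 TPM in footprints against 1.59 and 3.47 TPM in RNA (ratio 4.86, SE 0.44, adjusted p = 0.0059). The joined row of the granule ribonucleases Ear6 and Ear7 had 196 and 292 TPM in footprints against 19.6 and 8.72 TPM in RNA (ratio 4.92, SE 0.38, adjusted p = 0.0041). Prg2, another eosinophil granule protein, had 363 and 272 TPM in footprints against 36.5 and 258 TPM in RNA. Its ratio of 2.51 did not pass (SE 0.88, adjusted p = 0.077). Against the mean of later mock RNA the ratios of Epx, the joined Ear6 and Ear7 row and Prg2 were 2.93, 4.24 and 1.52. In bulk samples, more cells of a type and more RNA or footprints per cell cannot be told apart, and the part of granulocytes in these ratios was not tested.

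Several properties of the messages moved weakly with the ratio over 2716 annotated members, and these correlations across genes are descriptions. The ratio was related to the length of the 3′ UTR, with Spearman's rho of 0.209. The quintile of genes with the longest 3′ UTRs (2145 to 19422 bases) had a median ratio of 0.37, and the quintile with the shortest (3 to 276 bases) had -0.15. The RNA level, taken from the mock libraries of 1 h so that it shared no library with the ratio, gave a rho of -0.214. Medians were -0.10 in the most abundant quintile and 0.43 in the least abundant. The 0 h RNA libraries in the ratio correlated with mock libraries at up to 0.984 (replicate 1) and 0.987 (replicate 2). Gene errors common to RNA libraries thus enter both sides and can give a negative rho, and their share was not tested. Coding length gave -0.059, but the relation was not monotonic, with medians of 0.02, 0.24, 0.27, 0.22 and -0.20 over the quintiles of 132-720, 723-1122, 1125-1578, 1581-2418 and 2427-15540 bases. The length of the 5′ UTR gave -0.002. Genes with at least 1 upstream ATG in the 5′ UTR had a median of -0.01 (1157 genes), and those without one had 0.20 (1559 genes). RNA level, length and the family of ribosomal proteins overlap, and their separate shares were not tested.

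The resting ratio was also set beside the later response to LPS, which was measured in other RNA libraries. At 12 h the median LPS minus mock difference, on the log2 scale, was -0.09 for the 374 genes called higher, -0.28 for the 356 called lower and -0.15 for all genes. At 1 h the medians were -0.11, 0.04 and -0.12. Their quartiles overlapped widely at both times, from -0.61 to 0.51 for the genes called higher at 12 h and from -0.63 to 0.14 for those called lower.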

How the data were processed

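The authors deposited RNA levels in TPM. The submitters' processing notes list RSEM 1.2.3 and 1.1117, Bowtie 0.12.7 and the build mm9 for them. Footprint values carry no named unit and were taken as TPM, because each deposited column sums to 1000000. Their reads were aligned with Bowtie2 and TopHat2 to mm9, per the same notes, without versions. Whether the length behind the footprint TPM is the coding sequence or the whole transcript is not given in the sources used here.

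TPM keeps no read depth, so no counting error could be given and precision rests on 2 libraries per group. Rows were joined by name, values were transformed to log2(TPM + 1), which understates the change of low genes, and each library was centred on its median shared gene. A minimum of 1 TPM in 2 libraries kept all 2739 genes. A model with 1 mean per group (4 libraries, 2 residual and 4.04 prior degrees of freedom) was fitted in limma 3.58.1 (R 4.3.3) with a variance trend, and was tested on simulated data. It gives both groups 1 spread. Transcript features came from GENCODE M21, matched for 99.2% of genes. Figures used matplotlib 3.10.9 in Python 3.11.15.

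Named genes are the 15 highest and 15 lowest called ratios without overlap and with a mean of at least 10 TPM, the extremes of every list and its member with the most footprints, and all members of a few lists, not all of which are printed. Members and lists were chosen with earlier results of these data known. Protein labelling of the study was not analysed here.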

Additional observations from a re-analysis of the deposited data

How the results depend on the processing

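Counts of higher and lower genes stayed within 1.5 times of 374 and 356 under other pseudocounts, filters, rescalings, a quantile normalization, a fit to all 28 libraries and a fit without a variance trend. They did not under the following. Without centring there were 59 higher and 1232 lower genes. With mock RNA of 1 h in place of 0 h there were 989 and 756, and with the mean of all later mock groups 979 and 768. Leaving out 1 library gave 75 to 1146 higher and 148 to 909 lower genes, the few calls without a footprint library and the many without an RNA library. A fit with the replicate number as a block gave 538 higher and 487 lower, both within 1.5 times, and 724 of the 730 calls were made in it too, although the numbers are not shown to pair the libraries (deviations with the same number correlated at 0.031 across genes). Where 1 library was left out, the lone library of that group was assumed to vary like the other group.

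Without centring the list medians were -2.1 for ribosomal proteins, -0.07 for lysosomal hydrolases, -0.01 for secreted effectors, -0.18 for endoplasmic reticulum genes, 0.16 for Fc receptors and lectins, 0.13 for integrins, -0.91 for spliceosome proteins and 0.97 for granulocyte markers, while the median of all genes was -0.72. Under quantile normalization ribosomal proteins had -1.04 and endoplasmic reticulum genes 0.55. Against mock RNA of 1 h, ribosomal proteins had -1.44 and granulocyte markers 0.75, and against all later mock RNA spliceosome proteins had 0.04. Leaving out 1 library gave from -1.35 to -1.07 for ribosomal proteins, 0.55 to 0.68 for endoplasmic reticulum genes, -0.15 to 0.09 for spliceosome proteins and 1.55 to 2.61 for granulocyte markers. In a setting chosen after seeing the data, without genes that share at least 50% of their windows, the 3 remaining ribosomal proteins had -0.86. The cause of these shifts was not tested beyond what the settings themselves change. Of the named genes, Pmvk changed sign with a call, with -0.37 to 0.48 when an RNA library was left out (limma adjusted p = 0.047 at -0.37).

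The footprint table holds few low values for short genes. The 1st percentile of footprints was 34.5 TPM in the tenth of genes with the shortest coding sequences and 3.71 TPM in the tenth with the longest, against 27.4 and 8.81 TPM in 0 h RNA, so the lowest ratios may be missing among short genes.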
